A study of Bos taurus and Bos indicus with 12 samples.

Results

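Skin of tick-naive Brahman cattle was compared with skin of tick-naive Holstein-Friesian cattle, on the 6 of the 12 arrays that came from animals with no earlier exposure to the cattle tick Rhipicephalus microplus. The arrays were chosen by their labels alone, 3 per breed and 1 animal per array, and all 24016 probe sets that are not array controls were compared. Every animal was female. The naive Brahman animals were 18 months old and the naive Holstein-Friesian animals 12 months old, so breed and age cannot be told apart in this comparison. The other 6 arrays, 3 per breed, came from 6-month-old animals biopsied where larvae were attached after repeated heavy infestation, and they serve here as a second set of animals in which the same breed difference was measured. Each sample was 1 full-thickness punch biopsy, 8 mm wide and about 10 mm deep. The sources used here do not give herd, housing or body site. Each animal gave 1 array, so the spread within a group includes differences between animals.

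Holstein-Friesian is a taurine dairy breed. Brahman is an indicine (zebu) beef breed that is known for carrying fewer ticks than taurine cattle under the same exposure. Skin before any infestation is of interest because a tick larva meets it first: a keratinised epidermis, sebaceous and sweat glands, hair follicles and a collagen-rich dermis with resident immune cells. Epidermis and sebaceous glands make their own lipids and also oxidise them. Lipoxygenases, cytochromes P450, paraoxonases and hydroxysteroid dehydrogenases act on fatty acids, steroids and foreign compounds there.

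The markers matched the labelled tissue. The 5 measured markers of epidermal keratinocytes stood between the 96.1 and 100 percentile of mean signal over all probe sets, those of dermal fibroblasts between 87.7 and 99.6, and those of smooth muscle between 94.5 and 99.0. Markers of red cells reached at most the 27.0 percentile and those of B cells 39.3. None of these markers passed the test between the naive groups. The log2 signal of control transcripts near the 5' end minus that near the 3' end, which falls as RNA degrades, averaged -1.13 ± 0.29 (SD, n = 3) for the naive Holstein-Friesian and -0.94 ± 0.10 for the naive Brahman group. It averaged -1.57 ± 1.04 and -3.18 ± 1.52 in the infested groups. The median within-group SD of a probe set was 0.166 and 0.168 log2 in the naive groups, and 0.226 and 0.272 in the infested Holstein-Friesian and Brahman groups. The naive arrays were thus alike in integrity and less spread than the infested ones, which matters because the test below pools the spread of all 12 arrays. In a principal component analysis of the 6 naive arrays the first component held 40.8% of the variance and gave scores of -32.9, -18.3 and -10.9 to the Holstein-Friesian and -4.9, 24.8 and 42.2 to the Brahman arrays. The breeds did not overlap on it, but naive Brahman 1 (-4.9) lay closer to the nearest Holstein-Friesian array than to the other Brahman arrays, and it stood apart on the second component (19.9%), at -35.8.

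Few genes passed the test between the naive breeds, and those that did differed widely. ALOX12E, CYP4A11 and a probe set with no gene symbol were higher in naive Brahman skin. PON3, 1 of 2 probe sets of FOXP1 and another probe set with no symbol were lower. Together they were 6 of 24016 probe sets (0.025%) at an adjusted p under 0.05 in limma, in the model of all 12 arrays, and each differed at least 2-fold. At an unadjusted p under 0.05 there were 1149 (4.78%), a share no larger than that threshold itself. A model of the 6 naive arrays alone, which leaves the infested spread out, called 64 (0.266%), 32 higher and 32 lower, and these contained all 6. The groups of 3 arrays did not overlap for 3472 probe sets (14.5%), 1741 with Brahman above and 1731 with Brahman below. With 3 arrays a group, part of such separation arises by chance, and that part was not estimated here. Neither direction prevailed, and the median difference over all genes was 0.01 log2. The sequences of the probes were not used here, so a difference between breeds in transcript level and a difference in how well the transcript matches a probe cannot be told apart. In a biopsy, fewer cells of a type and less RNA per cell cannot be told apart either.

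ALOX12E, an arachidonate lipoxygenase of the epidermis that makes 12-hydroperoxy fatty acids, showed the largest increase of the called genes. It stood at 6.84, 6.49 and 7.14 log2 in the 3 naive Holstein-Friesian arrays. In the naive Brahman arrays it stood at 10.94, 10.73 and 11.21. The lowest Brahman array lay more than 3 log2 units above the highest Holstein-Friesian array, and the animals within each breed were close together. The difference was 4.14 ± 0.27 log2 (SE), or 17.6-fold (adjusted p = 0.00016), and lay between 3.97 and 4.30 when any 1 naive array was left out. Infested animals showed the same order, with 8.27, 7.13 and 8.00 in Holstein-Friesian and 10.29, 10.24 and 10.24 in Brahman skin. That difference was 2.46 ± 0.27 (adjusted p = 0.00688), and the change in the breed difference between naive and infested animals, -1.68 log2, did not pass (adjusted p = 0.390). All 6 Brahman arrays thus read at least 10.24, and all 6 Holstein-Friesian arrays at most 8.27. The part of age and exposure in these levels was not tested.

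Other lipoxygenase genes did not share this pattern. ALOX15 and ALOX12, the genes on either side of ALOX12E in the RefSeq gene order, differed by -0.12 ± 0.48 and, at the most intense of 3 ALOX12 probe sets, by 0.39 ± 0.33 log2. ALOX15 was near the bottom of the signal range, at 4.49, 3.97 and 4.15 against 4.24, 3.85 and 4.17. ALOX5, the leukotriene-forming lipoxygenase, differed by 0.23 and ALOX15B by 0.01. For the cyclooxygenases PTGS1 and PTGS2, which open the prostaglandin branch from the same substrate, the differences were -0.03 and 0.40. The breeds overlapped at each of these 6 genes, and none passed in either model.

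CYP4A11, a cytochrome P450 that hydroxylates the far end of fatty acid chains including arachidonate, was also higher in Brahman skin. Its values were 4.97, 4.68 and 4.57 in the naive Holstein-Friesian arrays. They were 7.49, 7.16 and 7.58 in the naive Brahman arrays. The breeds were fully apart by 2.67 ± 0.18 log2, or 6.38-fold (adjusted p = 0.00016). In infested skin the values were 4.99, 4.82 and 5.02 against 6.41, 6.36 and 6.90, a difference of 1.61 (adjusted p = 0.00688). Holstein-Friesian skin stayed at one low level in both sets, and Brahman skin lay above it in both. The gene lies in a cluster of related P450 genes. Both probe sets of CYP4A22, a close neighbour of the same family, were higher in Brahman by 0.39 and 0.46 log2 and did not pass. At the second the naive breeds did not overlap (unadjusted p = 0.0079 in the 6-array limma model). Members of this family are similar in sequence, so which family member a probe set reads is uncertain.

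CYP4B1, another neighbour in that cluster and an oxidase of fatty acids and foreign compounds outside the liver, stood at 6.28, 5.94 and 5.75 against 8.10, 7.74 and 7.64 in naive skin. The breeds did not overlap, and the difference of 1.84 ± 0.28 log2 missed the threshold with 12 arrays (adjusted p = 0.0818) and met it with the 6 naive arrays (adjusted p = 0.0125). That call ended without naive Holstein-Friesian 2, naive Holstein-Friesian 3 or naive Brahman 2, with an adjusted p of at most 0.0561 in these 3 models. In infested animals the breeds overlapped, with a difference of 0.42.

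PON3, a paraoxonase that hydrolyses lactones and oxidised lipids, was lower in Brahman skin by the largest margin among the calls of the 12-array model. Its values were 11.17, 10.04 and 10.92 in naive Holstein-Friesian arrays, near the top of the signal range. They were 6.08, 5.83 and 6.14 in naive Brahman arrays. Every Brahman array lay at least 3 log2 units below every Holstein-Friesian array. The difference was -4.69 ± 0.34 log2, or 25.8-fold (adjusted p = 0.000215). Infested animals gave 8.66, 9.37 and 9.35 in Holstein-Friesian and 5.20, 4.58 and 4.06 in Brahman skin, a difference of -4.52 (adjusted p = 0.000778). The breed difference was nearly the same in both sets of animals, changing by 0.17 ± 0.48. Its immediate neighbours in the paraoxonase cluster did not move with it. PON1 was near the bottom of the range and differed by 0.01, and PON2, at a mean of 9.52 against 9.70, differed by 0.18.

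FOXP1, a forkhead transcription factor that mostly represses its targets, was measured by 2 probe sets that pointed in opposite directions. At the first, naive Holstein-Friesian arrays gave 6.94, 6.24 and 6.30. Naive Brahman arrays gave 4.47, 4.26 and 4.40. The second read 5.25, 4.87 and 5.15 against 6.46, 7.0 and 6.51. Both probe sets separated the breeds completely, the first with Brahman below and the second with Brahman above. The first difference was -2.12 ± 0.20 log2 (adjusted p = 0.00247). The second, 1.57 ± 0.29, did not pass with 12 arrays (adjusted p = 0.184) and passed with the 6 naive arrays (adjusted p = 0.0236), a call that held only when naive Brahman 1 was the array left out and reached an adjusted p of 0.101 without naive Holstein-Friesian 3. The first call of the 6-array model (adjusted p = 0.0100) ended without naive Brahman 2 (adjusted p = 0.0533) or naive Brahman 3. Infested animals repeated the opposition, at -2.59 (adjusted p = 0.000778) and 2.36 (adjusted p = 0.0102). No direction can therefore be given for the gene as a whole. Of 98 genes with at least 2 probe sets under an unadjusted p of 0.05 in the 6-array model, 7 (7.14%) had such opposite signs.

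Both remaining calls of the 12-array model had no gene symbol in the platform annotation. The one higher in Brahman skin stood at 4.77, 5.03 and 5.63 in naive Holstein-Friesian and at 7.87, 7.70 and 7.76 in naive Brahman arrays, a difference of 2.63 (adjusted p = 0.002). It was higher in infested Brahman animals too, by 1.94 (adjusted p = 0.0102). The one lower in Brahman skin stood at 8.19, 8.17 and 9.21 against 5.96, 6.73 and 5.94, a difference of -2.31 (adjusted p = 0.0302). Its infested values, 8.43, 8.66 and 8.84 against 9.58, 9.38 and 9.21, had the opposite order without overlap, at 0.75 (adjusted p = 0.334). The change in its breed difference between the sets, 3.05 log2, did not pass (adjusted p = 0.113). This last call was the least firm: it ended when any of 5 arrays was left out, with an adjusted p of up to 0.163 without naive Brahman 3. The other 5 calls held whichever of the 12 arrays was left out.

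**Figure D1:**
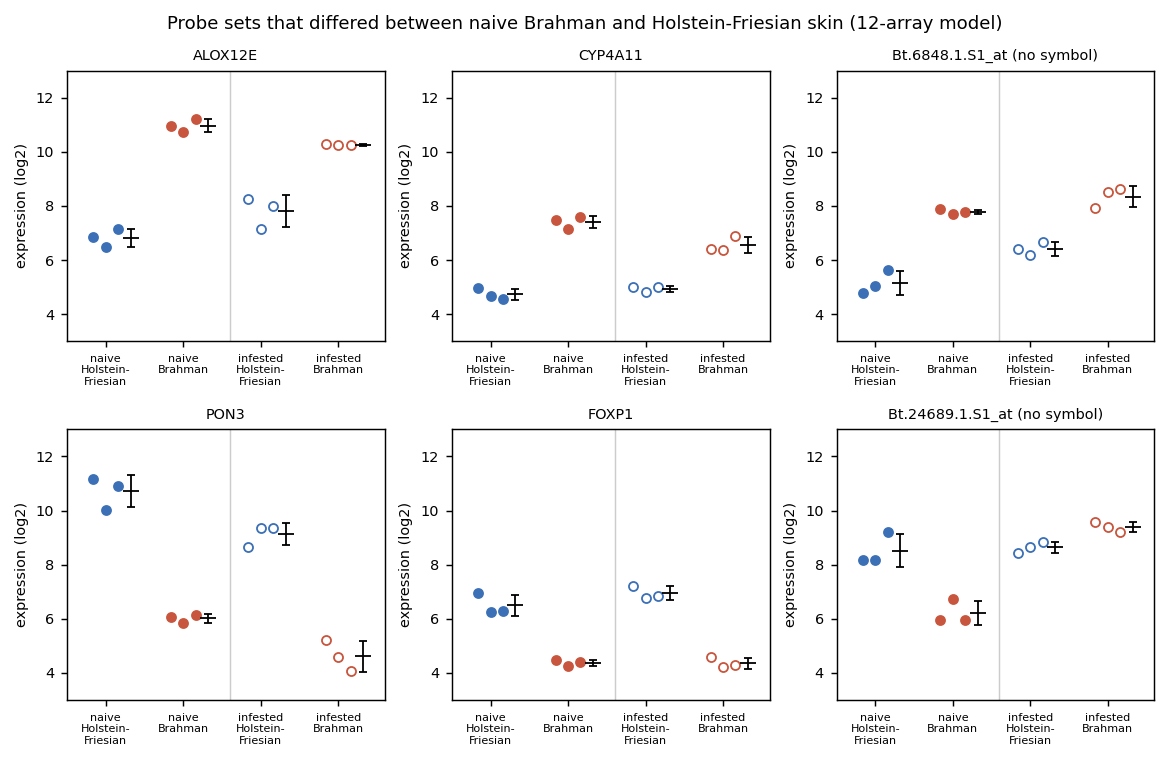
Expression (log2) of the 6 probe sets that passed the test between naive breeds in the 12-array model, by group; each point is 1 animal, filled for naive and open for infested, and the black bar is the mean with its SD (n = 3). ALOX12E and CYP4A11 are above and PON3 and the first FOXP1 probe set below in Brahman skin in both pairs of groups. The last probe set, which has no symbol, changes order between naive (-2.31) and infested (0.75) animals. The test of that change did not pass (limma, adjusted p = 0.113).

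After these calls, 3 genes in each direction, CYP4B1 among them, had the smallest p-values and did not pass in the 12-array model. HSD17B13, a hydroxysteroid dehydrogenase of lipid droplets, had the widest difference among them. Its more intense probe set read 8.96, 9.20 and 9.88 in naive Holstein-Friesian and 5.91, 4.22 and 4.35 in naive Brahman arrays, and its other probe set 6.39, 7.34 and 6.93 against 4.53, 4.17 and 4.65. Brahman lay below Holstein-Friesian at both, by -4.52 ± 0.64 (adjusted p = 0.0513) and -2.44 ± 0.56 log2 (adjusted p = 0.311). With the 6 naive arrays both passed (adjusted p = 0.0125 and 0.0131). Leaving out naive Holstein-Friesian 3, naive Brahman 2 or naive Brahman 3 ended both calls, with adjusted p of at most 0.0722, and leaving out naive Holstein-Friesian 2 ended the first. In infested skin the breeds overlapped at both probe sets, and infested Brahman 1, the array of lowest integrity index (-4.91), read 8.99 at the first, in the Holstein-Friesian range. The neighbouring HSD17B11 differed by 0.51 with Brahman above.

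MTARC2, a mitochondrial reductase of N-hydroxylated compounds, read 7.93, 8.04 and 7.86 against 9.17, 9.44 and 9.86 in naive skin. It was higher in Brahman without overlap, by 1.55 ± 0.23 log2 (adjusted p = 0.0733 with 12 arrays and 0.0236 with 6), and higher in infested Brahman animals by 1.11 (adjusted p = 0.103), also without overlap. The 6-array call held only when naive Brahman 1 was the array left out, and reached an adjusted p of 0.130 without naive Holstein-Friesian 1. MRNIP, a partner of a DNA break repair complex, had 2 probe sets with differences of 0.94 and 0.91 that did not pass in either model. Its first read 6.46, 6.36 and 6.15 against 7.22, 7.05 and 7.51.

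FKBP14 and COL21A1 both belong to collagen biology. FKBP14, a prolyl isomerase of the endoplasmic reticulum that helps collagen fold, read 8.42, 8.64 and 8.61 against 7.78, 7.88 and 7.53. COL21A1, a minor collagen associated with fibrils, read 8.62, 8.43 and 8.50 against 6.97, 7.52 and 6.98. Brahman lay below without overlap at both, by -0.83 (adjusted p = 0.0881) and -1.36 log2 (adjusted p = 0.0977). COL21A1 passed with the 6 naive arrays (adjusted p = 0.0322), a call that ended without any 1 naive Holstein-Friesian array or naive Brahman 3, with an adjusted p of up to 0.163. In infested animals the order was turned without overlap at both, at 0.15 for FKBP14 and 0.62 for COL21A1. The test of that change did not pass after adjustment (adjusted p = 0.226 and 0.206).

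The 64 calls of the 6-array model included genes whose naive groups were tight but whose infested values were widely spread. The genes named from it here were chosen after their values were seen. CYP2B6, a P450 that oxidises drugs and other foreign compounds, had the widest difference of the 64. It read 10.60, 10.27 and 10.42 in naive Holstein-Friesian and 5.78, 5.36 and 4.85 in naive Brahman arrays. The breeds were about 5 log2 units apart, at -5.10 ± 0.23 (SE, 6-array model) or 34.3-fold (adjusted p = 0.000329). In infested animals it read 9.06, 10.37 and 9.61 against 10.18, 10.43 and 5.26, so only infested Brahman 3 was as low as the naive Brahman animals. That spread raised the SE to 1.06 with 12 arrays, where the naive difference did not pass (adjusted p = 0.232).

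Of the 64 calls, 10 held whichever of the 6 naive arrays was left out. Among these were ALOX12E, CYP4A11, PON3 and CYP2B6, 3 probe sets without a symbol, and the genes ENPP3, TAGLN2 and DNMT3A. ENPP3, an ectonucleotidase on the surface of basophils, mast cells and some epithelia, read 7.49, 7.90 and 7.67 against 5.26, 5.41 and 5.78. TAGLN2, an actin-binding protein of many cell types, read 12.16, 12.58 and 12.23 against 10.35, 10.08 and 10.58. DNMT3A, a DNA methyltransferase, read 6.10, 6.30 and 6.05 against 7.73, 7.54 and 7.57 at 1 of its 3 probe sets. Brahman was lower in ENPP3 by -2.20 (adjusted p = 0.00498) and in TAGLN2 by -1.99 (adjusted p = 0.00752), and higher at that DNMT3A probe set by 1.46 (adjusted p = 0.0073). The other 2 DNMT3A probe sets were not called. The most intense of the 3 differed by -0.23 with overlapping groups, and the third by -0.0. The higher level was thus seen at 1 probe set and cannot be given for the gene as a whole. None of these 3 genes passed with 12 arrays, where the adjusted p was 0.201, 0.378 and 0.204.

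KIF3A, a motor of ciliary transport, and CRABP1, a binding protein for retinoic acid, were lower in naive Brahman skin in the 6-array model. KIF3A read 7.60, 6.89 and 7.38 against 5.25, 4.70 and 4.61, a difference of -2.43 (adjusted p = 0.0113, at most 0.0598 without naive Holstein-Friesian 3, and lost too without naive Brahman 2 or 3). CRABP1 read 7.62, 8.16 and 7.48 against 6.25, 6.05 and 6.15, a difference of -1.60 (adjusted p = 0.0236). That call was lost without naive Holstein-Friesian 1, where the adjusted p was 0.0993, and without naive Holstein-Friesian 3 or naive Brahman 2 or 3. In infested animals CRABP1 differed by 1.01 with overlapping groups, and the change between the sets had an unadjusted p of 0.000211 and an adjusted p of 0.226.

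Higher in naive Brahman skin in the same model were both probe sets of BOLA-DQA1, an MHC class II chain that presents antigen and is highly polymorphic. Both probe sets have the same target sequence in the platform annotation, so they are not independent readings. They read 6.42, 6.09 and 6.09 against 7.69, 8.20 and 7.58, and 6.76, 6.94 and 6.56 against 7.95, 8.95 and 8.40. The differences were 1.62 (adjusted p = 0.0236) and 1.68 (adjusted p = 0.0498), and in infested animals -0.12 and -0.22 with overlapping groups. CD36, a fatty acid transporter and scavenger receptor, was higher by 1.82 (adjusted p = 0.0498). These 3 calls held only when naive Brahman 1 was the array left out, and their highest adjusted p was 0.202. JUN, a component of the AP-1 transcription factor, was higher at 2 of its 5 probe sets, by 2.13 and 1.95 (adjusted p = 0.0322 and 0.0236). Both JUN calls ended without naive Holstein-Friesian 2, naive Brahman 2 or naive Brahman 3, and the first also without naive Holstein-Friesian 3, with an adjusted p of at most 0.125. In infested animals the JUN differences were 0.00 and -0.56.

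**Figure D2:**
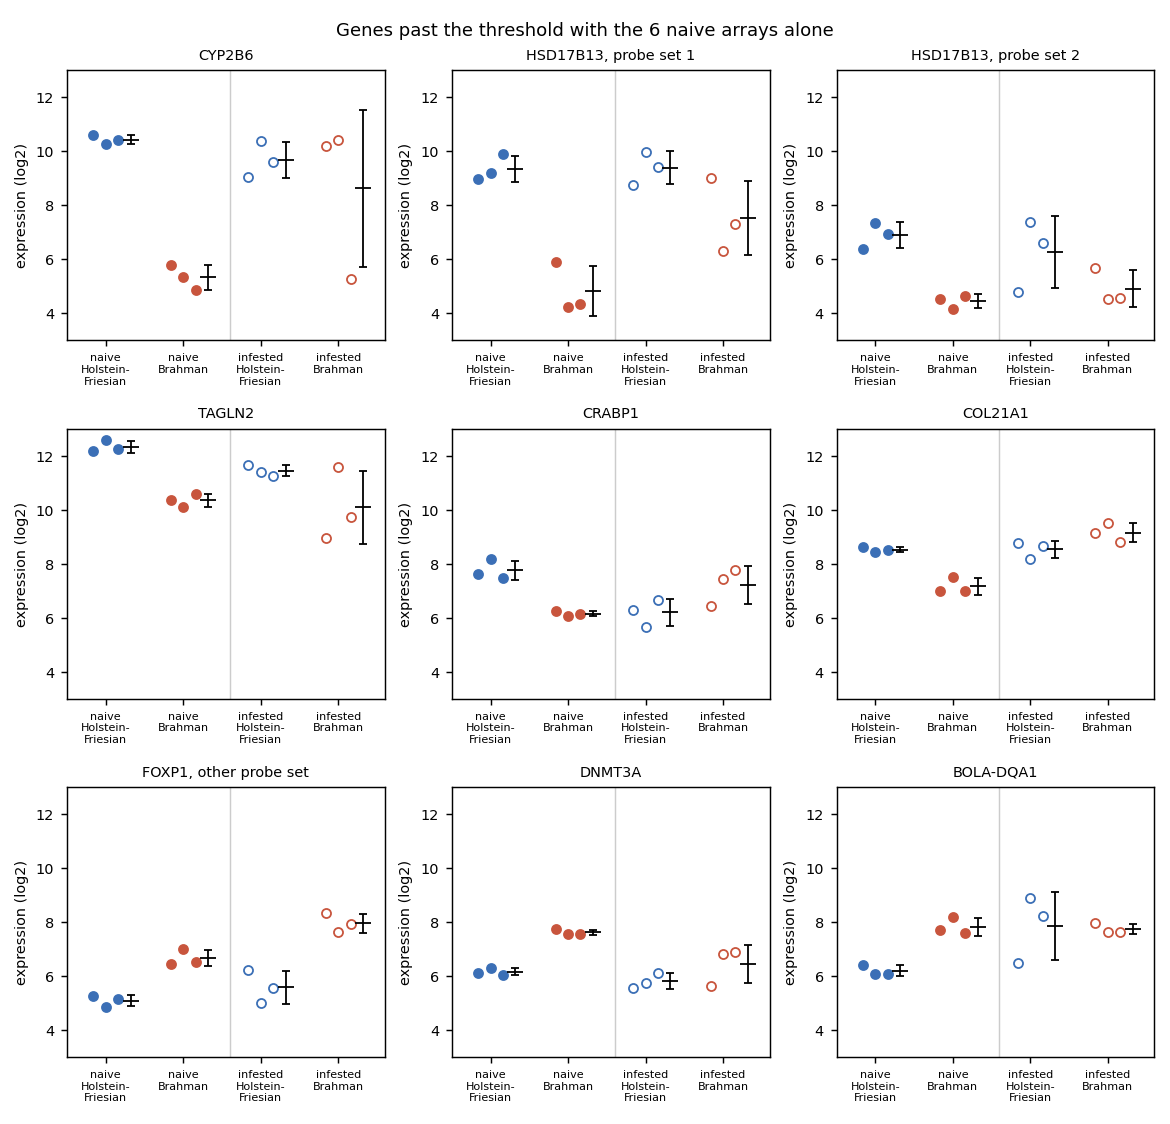
Expression (log2) by group of 9 probe sets that passed with the 6 naive arrays alone; points are animals, filled for naive and open for infested, and black bars are the mean with its SD (n = 3). The naive breeds are apart in every panel, and the infested breeds overlap in the panels of CYP2B6, HSD17B13, TAGLN2, CRABP1, DNMT3A and BOLA-DQA1.

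Infested animals gave the same comparison in 6 animals of one age. Of the 6 calls of the 12-array model, 5 were called again in infested skin in the same direction, where 40 of 24016 probe sets (0.167%) were called. Both tests used the same pooled spread of the 12 arrays, so the infested calls are not an independent repeat. A model of the 6 infested arrays alone called 1 probe set, lower in Brahman and without a single gene symbol, and it was none of these 5. Of the 64 calls of the 6-array model, 48 (75.0%) had the same sign in infested skin, against 49.6% of all probe sets. In 17 of the 64 (26.6%) the infested groups lay apart in that direction, against 6.9% of all probe sets, and in 2 they lay apart in the other direction. The median size of the difference over the 64 was 1.54 log2 in naive skin, and 0.62 in infested skin when signed by the naive direction. The naive sizes are from the arrays that chose the 64, whereas the infested ones are not. Age, exposure and RNA integrity all differ between the sets, and their part in the smaller infested value was not tested.

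**Figure D3:**
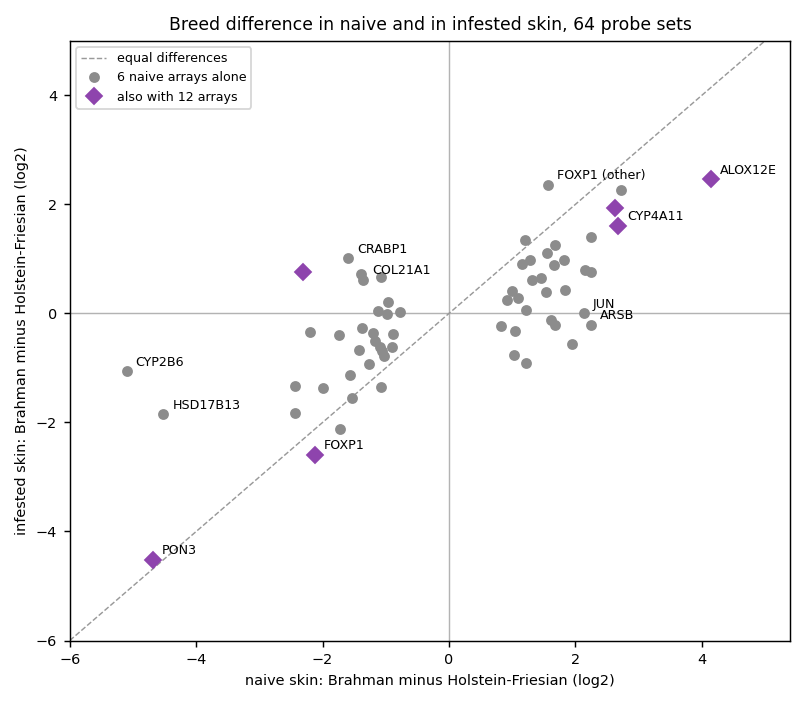
Breed difference (Brahman minus Holstein-Friesian, log2) in infested skin against that in naive skin, for the 64 probe sets called with the 6 naive arrays; diamonds mark the 6 also called with 12 arrays, and the dashed line marks equal differences. PON3 and the first FOXP1 probe set lie near the line, and the other FOXP1 probe set (1.57 naive, 2.36 infested) lies above it. CYP2B6 and HSD17B13 lie far from the line, and CRABP1 and COL21A1 have opposite signs in naive and infested skin.

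The breed difference itself differed between the sets for 1 probe set (0.00416%), which reads PCOLCE, an enhancer of procollagen processing. It stood at 9.61, 9.61 and 9.67 in naive Holstein-Friesian and at 8.96, 8.95 and 9.17 in naive Brahman arrays. In infested animals it stood at 10.64, 10.22 and 10.56 against 11.71, 11.98 and 11.95. Brahman was thus below Holstein-Friesian in every naive and above it in every infested animal. The naive difference was -0.60 (adjusted p = 0.350) and the infested one 1.41 (adjusted p = 0.00411), and the change between them was 2.01 ± 0.20 log2 (adjusted p = 0.019). It did not pass without 7 of the 12 arrays, each naive Holstein-Friesian array among them (adjusted p at most 0.119). The second PCOLCE probe set had the same signs, -0.41 and 0.79, and did not pass (adjusted p = 0.662).

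The 41 gene lists below were taken at 1 probe set a gene. Only ALOX12E, CYP4A11 and PON3 passed within them in the 12-array model, so counts at an unadjusted p under 0.05 in the 6-array model are given as descriptions. Over all 9155 genes measured, 570 (6.23%) were higher and 475 (5.19%) lower in naive Brahman skin at that level. Members named beyond the smallest p-values of a list were chosen after their values were seen.

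Among 65 glutathione, quinone and xenobiotic enzymes, 13 (20.0%) were higher and 7 (10.8%) lower at that level, with a median difference of 0.07 log2 beside 0.01 for all genes. The list thus held large differences in both directions rather than a shift. The counts lay between 9 and 13 higher and between 5 and 7 lower when any 1 naive array was left out. CYP2B6 and PON3 were lower, and CYP4A11 and CYP4B1 higher, as described above. The aldo-keto reductase AKR1C3 read 9.51, 10.38 and 11.27 against 12.63, 12.04 and 11.45, and its relative AKR1C4 read 11.85, 12.70 and 13.12 against 13.83, 13.30 and 13.44. EPHX2, which opens fatty acid epoxides, read 9.83, 9.54 and 8.67 against 10.04, 10.41 and 11.11. Brahman lay above without overlap at these 3 genes, by 1.65, 0.97 and 1.17, and none passed in either model. GSTA2, a glutathione transferase, varied 4.60, 8.22 and 11.02 within naive Holstein-Friesian skin and read 11.40, 10.94 and 11.24 in Brahman skin, so the groups overlapped.

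Of 25 arachidonate and eicosanoid enzymes, 6 (24.0%) were higher and 1 lower at the unadjusted level, and the median difference was 0.11. Besides ALOX12E and CYP4A11, the higher ones included the prostaglandin E synthases PTGES, at 0.49, and PTGES3, at 0.28. The lower one was PTGDS, a prostaglandin D synthase, at 10.76, 10.44 and 10.67 against 10.29, 9.27 and 9.52 and a difference of -0.93 (adjusted p = 0.241 with 6 arrays). The count of higher genes was 3 when naive Holstein-Friesian 1, naive Brahman 2 or naive Brahman 3 was left out and 8 when naive Holstein-Friesian 2 was, and the median was 0.27 without naive Brahman 1. In steroid hormone and retinoid metabolism 6 of 35 genes (17.1%) were lower and 1 higher, with a median of -0.01. Apart from CRABP1, these included HSD17B2, which inactivates oestradiol and testosterone, at -1.29, and the retinal reductase DHRS3, at -0.63. CYP17A1, an enzyme of androgen synthesis, read 12.65, 12.72 and 12.64 against 11.40, 12.29 and 12.23. Neither model called HSD17B2, DHRS3 or CYP17A1.

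Cell cycle genes stood lower in naive Brahman skin across most of the list. Of 43 measured, 40 had a negative difference, and 12 (27.9%) were lower and 0 higher at the unadjusted level. In 13 (30.2%) every Brahman array lay below every Holstein-Friesian array, against 8% of all 9155 genes. The median was -0.38 log2 beside 0.01 for all genes, and no member passed after adjustment in either model. KIF23, a kinesin of cell division, read 8.49, 8.49 and 8.50 against 7.25, 7.94 and 7.35, a difference of -0.98 (adjusted p = 0.108 with 6 arrays). UHRF1, which maintains DNA methylation through replication, read 7.77, 8.17 and 7.94 against 7.43, 7.50 and 6.96. RRM2, a subunit of ribonucleotide reductase, read 9.16, 9.60 and 9.27 against 8.90, 9.02 and 8.46. These 3 genes separated the breeds, each with Brahman below. The level of the list was 0.04, 0.44 and 0.07 in the Holstein-Friesian arrays and -0.09, 0.01 and -0.48 in the Brahman arrays, relative to the mean of the 6. Naive Holstein-Friesian 2 was highest and naive Brahman 3 lowest. Without that Holstein-Friesian array 4 genes were lower at the unadjusted level and the median was -0.22, and without that Brahman array 4 were lower and it was -0.18. In infested animals the median was 0.11.

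Collagens and dermal matrix genes were more often lower than higher, with 10 (27.0%) against 3 (8.11%) of 37 and a median of -0.23. The list level overlapped between the breeds, at -0.03, 0.24 and 0.05 in Holstein-Friesian and -0.23, 0.0 and -0.03 in Brahman arrays. The fibrillar collagens COL1A1, at 13.83, 13.64 and 13.59 against 13.08, 13.30 and 13.17, and COL3A1, at 13.62, 13.56 and 13.41 against 13.12, 13.35 and 13.16, were both separate with Brahman below. Their differences were -0.51 and -0.32. COL1A2 differed by -0.23 with overlap at 1 probe set and by -0.82 without overlap at another. TNC, a matrix glycoprotein of growing and injured tissue, read 9.07, 10.18 and 8.99 against 7.13, 7.75 and 7.91, a difference of -1.81 (adjusted p = 0.272 with 12 arrays and 0.105 with 6). POSTN, another such glycoprotein, differed by -1.13 and the proteoglycan LUM by -0.97. The higher members were TNXB, MFAP4 and MFAP5, which belong to elastic and fibril-associated matrix, at 0.87, 0.51 and 0.74. No member passed after adjustment. The median was -0.11 without naive Holstein-Friesian 2, and the count of higher genes was 8 without naive Brahman 1, 0 without naive Brahman 3, and 1 without naive Holstein-Friesian 1, naive Holstein-Friesian 3 or naive Brahman 2. In infested animals the median was 0.26. Of 22 endothelial and lymphatic genes, 5 (22.7%) were lower and 1 higher, with a median of -0.22, for example ENG at -0.39 and the adhesion molecule SELE at -0.54. Without naive Brahman 2 there were 3 lower and the median was -0.15, and without naive Holstein-Friesian 3 it was -0.14. With 12 arrays 0 endothelial and lymphatic genes were lower and 0 higher at the unadjusted level. The level of that list overlapped between the breeds, at -0.06, 0.14 and 0.11 against -0.19, -0.05 and 0.05.

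MHC class II and T cell genes were higher more often than lower at the unadjusted level, and MHC class I genes were not. In MHC class II presentation 4 of 14 genes (28.6%) were higher and 0 lower, with a median of 0.36, and in the T cell and cytotoxic cell list 5 of 27 (18.5%) and 0, with a median of 0.09. With 12 arrays 1 gene of each list was higher and 0 lower at that level, beside 280 higher and 236 lower of all 9155 genes. The list levels of the breeds overlapped. For class II they were -0.31, -0.10 and 0.13 in Holstein-Friesian and -0.17, 0.33 and 0.12 in Brahman arrays. For T cells they were -0.10, 0.08 and -0.28 against 0.03, -0.04 and 0.31. BOLA-DMA, which loads peptides onto class II molecules, read 6.71, 7.59 and 7.18 against 7.49, 7.85 and 8.37, and BOLA-DRB3 read 9.38, 10.28 and 10.03 against 10.06, 10.75 and 10.97. The groups overlapped at both. Of 17 genes of MHC class I and antigen processing, 0 were higher and 0 lower, and the median was 0.0. Without naive Holstein-Friesian 1 that median was -0.17, with 15 of the 17 differences negative. ZAP70, a T cell receptor kinase, read 7.08, 7.10 and 7.08 against 7.58, 7.65 and 9.27, with naive Brahman 3 well above the others. CD3E, a chain of the T cell receptor complex, read 7.42, 7.76 and 7.11 against 7.94, 7.75 and 8.82. No T cell gene passed after adjustment. The T cell count fell to 0 higher and 1 lower without naive Holstein-Friesian 3, and to 1 higher without naive Holstein-Friesian 1 or naive Brahman 3. The T cell median was 0.22 without naive Holstein-Friesian 2 and 0.06 without naive Holstein-Friesian 3. The class II count was 1 without naive Holstein-Friesian 1 or naive Brahman 2, 2 when naive Brahman 3 or naive Holstein-Friesian 3 was left out, and 9 when naive Holstein-Friesian 2 was. Its median lay between 0.21 without naive Holstein-Friesian 3 and 0.59 without naive Holstein-Friesian 2.

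**Figure D4:**
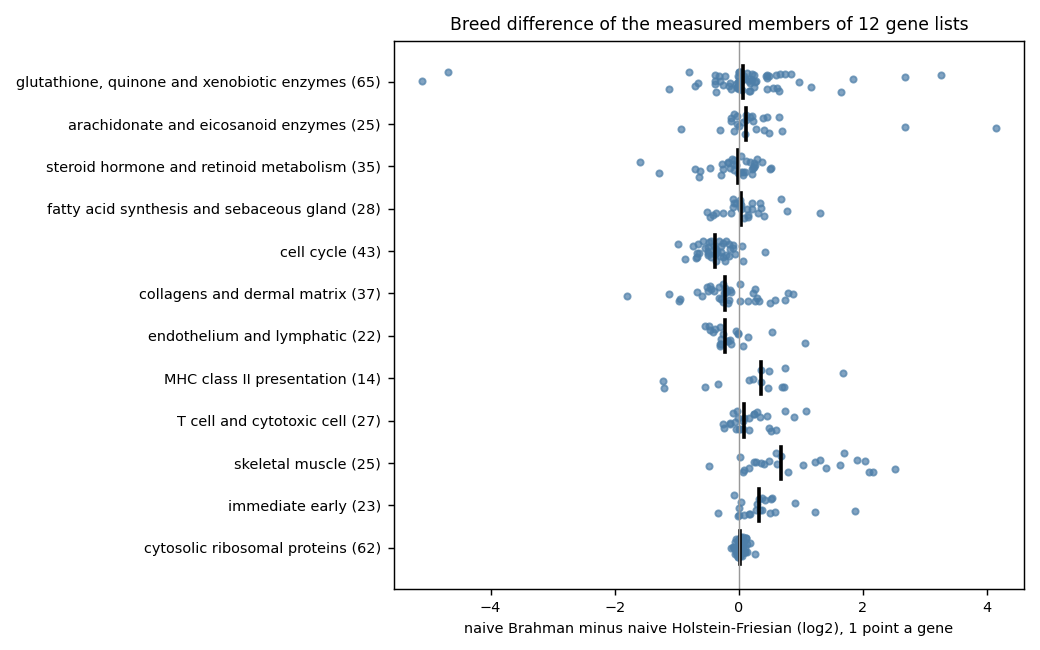
Difference between naive Brahman and naive Holstein-Friesian skin (log2) for the measured members of 12 gene lists; each point is 1 gene, the black bar is the list's median, and the number of members stands in parentheses. Cell cycle genes lie mostly below 0 with a median of -0.38, the xenobiotic list has both its lowest member, CYP2B6 (-5.10), and its highest, GSTA2 (3.25), far from a median of 0.07, and ribosomal proteins lie close to 0.

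Skeletal muscle and immediate early genes differed among the Brahman animals themselves. The skeletal muscle list had 24 of 25 differences above 0 and a median of 0.68, but its level was -0.76, -0.14 and -0.49 in the Holstein-Friesian arrays and -0.78, 0.83 and 1.35 in the Brahman arrays. Naive Brahman 1 was the lowest of all 6, and naive Brahman 2 and 3 the highest. The myosin light chain MYL1 read 4.06, 4.92 and 4.67 against 4.43, 7.96 and 8.77. MYBPC1, a myosin-binding protein, read 4.39, 5.18 and 4.64 against 5.59, 6.90 and 7.84. At an unadjusted p under 0.05 there were 6 higher and 1 lower gene, 20 higher without naive Brahman 1, and 2 higher without naive Holstein-Friesian 1, naive Holstein-Friesian 3, naive Brahman 2 or naive Brahman 3. The median was 0.34 without naive Brahman 3. How muscle content bears on the calls above was not tested.

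The immediate early list, transcription factors and phosphatases that respond to stimulation within minutes, had 20 of 23 differences above 0 and a median of 0.32. Its level was -0.14, -0.32 and -0.09 against -0.29, 0.54 and 0.31, so naive Brahman 1 again lay with the Holstein-Friesian arrays. FOS read 8.50, 7.17 and 8.66 against 7.95, 11.44 and 10.55, and DUSP1 10.19, 9.65 and 10.53 against 10.54, 11.68 and 11.83. At the unadjusted level 1 gene was higher and 1 lower, and 12 were higher without naive Brahman 1. The median was 0.56 without naive Brahman 1 and 0.08 without naive Brahman 2. The JUN probe set with the highest mean, which stood for JUN in this list, overlapped between the breeds, whereas the 2 called JUN probe sets gave high values in all 3 Brahman arrays, naive Brahman 1 included, at 10.44 and 8.22.

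**Figure D5:**
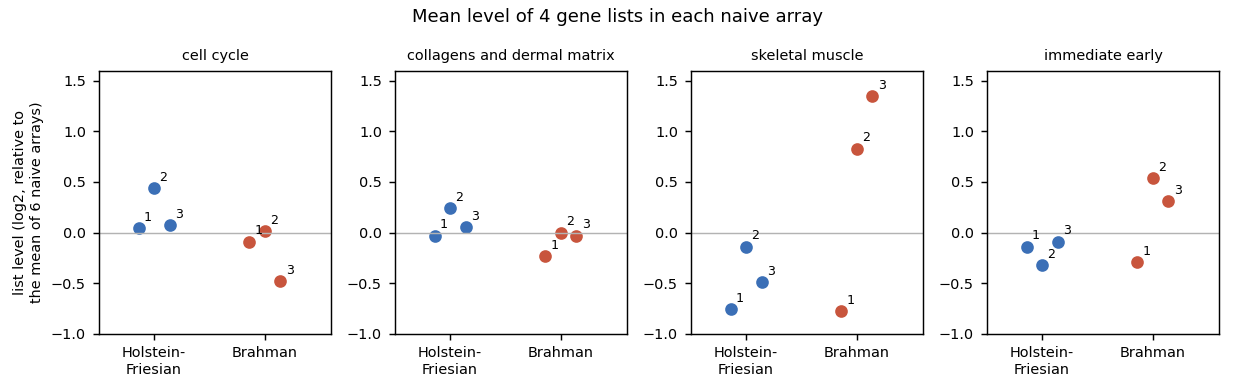
Mean level of 4 gene lists in each naive array (log2, relative to the mean of the 6 naive arrays); numbers beside the points are the animals' replicate numbers. Naive Brahman 1 lies apart from the other Brahman animals for skeletal muscle (-0.78) and immediate early genes (-0.29), and naive Brahman 3 is lowest for the cell cycle (-0.48).

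In the other 31 lists, with all 6 naive arrays, the median lay between -0.24 and 0.13, and at most 4 members were higher and at most 3 lower at the unadjusted level. Keratinocyte genes had a median of -0.05, ribosomal proteins 0.02 and oxidative phosphorylation 0.01. Complement and interferon-stimulated genes had no member at the unadjusted level with all 6 arrays. That count depended on single arrays: 3 complement genes were higher without naive Holstein-Friesian 2, and 5 of 28 interferon-stimulated genes were lower without naive Brahman 3, with a median of -0.19. Some single genes in these lists were apart between the breeds without passing. KRT6B, a keratin of activated and wounded epidermis, read 11.45, 13.08 and 8.03 in Holstein-Friesian and 7.92, 7.86 and 6.89 in Brahman arrays, with a wide spread in the former. The antimicrobial protein genes LTF, at 10.82, 10.56 and 9.75 against 9.12, 8.74 and 7.27, and PGLYRP1, at 13.73, 13.39 and 13.83 against 12.91, 10.94 and 11.98, were lower in each Brahman animal. Their differences were -2.0 and -1.71 (adjusted p = 0.666 and 0.396). A2M, a broad protease inhibitor, read 8.14, 9.08 and 8.81 against 9.94, 10.83 and 11.06, a difference of 1.93 (adjusted p = 0.504 with 12 arrays and 0.0861 with 6). CIDEA, a lipid droplet protein of sebaceous glands, read 10.37, 10.44 and 10.40 against 11.15, 11.64 and 12.34, a difference of 1.31 (adjusted p = 0.131 with 6 arrays).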

How the data were processed

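Per the submitters' processing notes, the authors made the deposited log2 values with RMA from 1 Affymetrix bovine array per animal, 12 arrays in all. The sources used here do not name the RMA program or the chip definition file, and background correction and normalization were left as deposited. Precision is limited by 3 arrays per group. After 112 control probe sets were removed, 24016 were tested. The platform annotation gave 1 symbol to 13292, several to 86 and none to 10638, and only those with 1 were named. The RefSeq gene table (assembly ARS-UCD2.0) gave neighbouring genes.

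Differences are Brahman minus Holstein-Friesian means. They were tested two-sided with limma 3.58.1 in R 4.3.3 (lmFit, eBayes), with 4 group means over 12 arrays and Benjamini-Hochberg adjustment over all probe sets at 0.05. The 12-array model had 8 residual and 3.03 prior degrees of freedom, and a model of the 6 naive arrays 4 and 3.94. The scripts were tested on simulated data. Arrays shared at most 0.104% of values, so none was deposited a second time. In 41 gene lists the probe set of highest mean stood for a gene, which left 9155 genes. Named genes were the 15 largest non-overlapping calls in each direction or, with fewer than 5, the 5 of smallest p, plus up to 4 calls or otherwise the smallest p-values of each list. The members, gene lists and rules were chosen with earlier results of these data known. Other settings tried were a filter that dropped probe sets below the 40 percentile of mean signal, other scalings, priors and weights, blocks, an integrity covariate and leaving out each array.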

Additional observations from a re-analysis of the deposited data

Results flagged for a closer look

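The breed difference of PCOLCE, an enhancer of procollagen processing, went in opposite directions in naive and infested skin at the more intense of its 2 probe sets. Brahman minus Holstein-Friesian was -0.60 log2 in naive animals and 1.41 in infested animals, and the change of 2.01 passed limma's test of the interaction (adjusted p = 0.019). It lay between 1.88 and 2.09 when any 1 array was left out, and the call ended for 7 of the 12 arrays. With the replicate number as a block the adjusted p was 0.100 and with the integrity index as a covariate 0.0666, and under the other settings tried it lay between 0.00113 and 0.0292. The infested groups were younger and had a lower mean integrity index than the naive ones, although infested Holstein-Friesian 2, at -0.745, was above every naive array. The part of age or integrity in this difference was not tested.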

How the results depend on the processing

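Against 6 probe sets called between the naive breeds, the count was 64 with only the 6 naive arrays, 13 with a trended robust prior, 400 with array weights, 17 with the integrity index as covariate and 40 with a replicate block in the 6 arrays. It lay between 5 and 37 when 1 array was left out, the latter without naive Brahman 1. The 64 calls became 164 with array weights and between 13 (without naive Brahman 3) and 126 (without naive Brahman 1). In infested skin 40 calls became 1 with only those 6 arrays, 25 with the low-signal filter, 1082 with array weights and 0 with a replicate block in those arrays (limma, 1826 at an unadjusted p under 0.05). They lay between 11 (without infested Holstein-Friesian 2) and 1235 (without infested Holstein-Friesian 1). The 1 call of the change between the sets became 2 with cyclic loess, 648 with array weights and 0 with the replicate block (limma, 2197 unadjusted), and lay between 0 and 390, the latter without infested Holstein-Friesian 1. The cause of these changes was not tested. ALOX12E, CYP4A11, PON3 and the first FOXP1 probe set kept their calls in every alternative to the 12-array model that tested them; the low-signal filter removed CYP4A11 and that FOXP1 probe set. In the 6-array model the FOXP1 call ended without naive Brahman 2 (adjusted p = 0.0533) or naive Brahman 3. Of 2810 values of 135 probe sets under alternatives, 2581 kept direction and side of the threshold, 221 came to pass it, 7 lost it (all the call without a symbol that was lower in Brahman skin) and 1 reversed: HOXA4, -0.20, lay between -0.302 and 0.002453 over arrays left out. Same-numbered naive arrays correlated at 0.328, 0.022 and 0.203 and infested ones at 0.095, -0.004 and 0.19 after group means were removed. In both pairs of groups, replicates 1 and 3 correlated best with their own number, and replicate 2 did not. These correlations do not settle whether the numbers pair the animals, and the block left 5 naive calls. Values near the bottom of the signal range, such as those of CYP4A11 in Holstein-Friesian skin, limit how large a difference can be read.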
